A study of Mus musculus with 6 samples.

Results

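Circular RNAs (circRNAs) from 3 host genes of the synapse and of membrane traffic were followed in the nucleus accumbens (NAc) of mice, each through 1 array probe. The probes were those for Dlgap2 (ASCRP4002674), Magi1 (ASCRP4003259) and Rab30 (ASCRP4010038), 3 of the 14236 circRNA probes on every array. Dlgap2 and Rab30 were selected on the signal values of these same arrays, through the authors' deposited table of circRNAs lower in cocaine conditioned place preference (CPP). That table holds circRNAs whose fold change exceeded 1.3 with p under 0.05, so the group difference of both was part of the choice and is given here as a description without a test. Magi1 is in neither deposited table. It was chosen because the study names this host gene among targets of HuD, a neuronal RNA-binding protein, on samples other than these arrays.

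The data are 6 one-colour arrays of NAc total RNA from adult male C57BL6 mice, 2 months old and of the C57Bl/6J substrain per the study's methods. In the cocaine CPP group (replicates 2, 3 and 4) mice were trained to associate one chamber with cocaine. The series' design text calls the control group (replicates 1, 5 and 6) saline mice, and the sample labels read only control. Per the methods the tissue was taken 1 h after the CPP test. All 6 RNAs were treated with RNase R, which removes linear transcripts, and were then labelled with Cy3. The design counts 3 mice in each group, and the labels do not tie each array to an animal, so the SDs below measure the spread between these samples. An SE given with a log2 fold change is limma's moderated error, which also draws on the variance of all probes tested.

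A circRNA forms when the spliceosome joins a downstream donor to an upstream acceptor of the same transcript, a step called back-splicing. The closed ring resists exonucleases, and circRNAs are abundant in neurons, where many come from genes of the synapse. A probe over the back-splice junction reads the ring and not the linear mRNA, so the values below say nothing of the amount of DLGAP2, MAGI1 or RAB30 protein. Dlgap2 encodes a SAPAP family scaffold that binds the guanylate kinase-like domain of PSD-95 in the postsynaptic density. Magi1 encodes a membrane-associated guanylate kinase with PDZ and WW domains that organises complexes at cell junctions and synapses. Rab30 encodes a small GTPase of the Golgi apparatus, where Rab proteins direct the budding, transport and docking of membrane vesicles.

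The sequences that the authors' tables list for the 3 circRNAs are shown because they define what was measured. The sequences of Dlgap2 and Rab30 are in the deposited table, and that of Magi1 is in the study's list of HuD-bound circRNAs, whose column names it the new exon junction. None of the 3 listed strands holds the AU-rich pentamer ATTTA. Capitals mark its reverse complement, TAAAT, which stands once in circRab30.
circDlgap2: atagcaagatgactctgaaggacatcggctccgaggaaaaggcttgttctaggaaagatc
circMagi1: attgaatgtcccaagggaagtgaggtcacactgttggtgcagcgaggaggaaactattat
circRab30: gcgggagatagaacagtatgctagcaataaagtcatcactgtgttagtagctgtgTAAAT

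Each sequence is 60 bases long. The GC content was 46.7% for circDlgap2, 46.7% for circMagi1 and 40.0% for circRab30, where the median of the 681 listed sequences was 45.0%. ATTTA stood on the listed strand in 32 of these 681 sequences (4.70%) and on either strand in 55 (8.08%). Of circRab30 only the strand opposite to the listed one holds ATTTA, so an RNA of the listed strand has no copy in these 60 bases. For circDlgap2 and circMagi1 neither strand holds it there. AU-rich elements are the class of sequence that HuD binds, and a match of these letters is a description and not a site. The circRNAs of Rab30 and Magi1 are on the HuD-bound list of the study that was used here, and this circRNA of Dlgap2 is not. The study's text places a circRNA of Dlgap2 among those predicted from sequence motifs to bind HuD, a prediction that was not examined here.

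The circRNA of Dlgap2, mmu_circRNA_42588, lies at chr8:14839699-14846923 on the plus strand, a genomic span of 7225 bases, and is annotated as sense overlapping. The circRNA of Rab30, mmu_circRNA_41891, lies at chr7:92819983-92829709 on the plus strand, spans 9727 bases and is annotated as exonic. The deposited table gives these coordinates without naming a genome build. The circRNA of Magi1, mmu_circRNA_40577, is annotated as exonic on the minus strand, and RefSeq places its host gene on chromosome 6 (GRCm38.p6). The study's list of competing RNAs names another circRNA of Magi1, which was not analysed here, and the probe's values cannot be carried over to it.

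The deposited table also lists for each circRNA 5 microRNAs, short RNAs that pair with targets through their seed (bases 2 to 8). The mature forms that RefSeq (GRCm38.p6) holds are shown with the seed in capitals, since they are the partners the authors attach to the 2 circRNAs of that table. For circDlgap2 these are 2 of the 5; miR-466b-5p, miR-466c-5p and miR-466o-5p are named only.
mmu-miR-6973b-5p: gUAGGUAUggggagaggacaggga
mmu-miR-5110: gGAGGAGGuagagggugguggaauu

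For circRab30 all 5 listed microRNAs had a sequence.
mmu-miR-509-5p: uACUCCAGaauguggcaaucau
mmu-miR-6900-3p: uGGUGAUGggcucucuuguag
mmu-miR-6237: uUAAGGAUugggucuuggaauuc
mmu-miR-125a-3p: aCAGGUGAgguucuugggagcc
mmu-miR-6351: uAGCGUUGcucagggagcacaug

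No seed was shared between these microRNAs. Complements of the seeds were searched on both strands of the listed sequences. For circDlgap2 they were ATACCTA (for miR-6973b-5p) and CCTCCTC (for miR-5110). For circRab30 they were CTGGAGT (for miR-509-5p), CATCACC (for miR-6900-3p), ATCCTTA (for miR-6237), TCACCTG (for miR-125a-3p) and CAACGCT (for miR-6351). None was found. The share of all 681 listed sequences that hold such a complement ran from 0% for ATACCTA to 1.76% for CCTCCTC and TCACCTG. The search covers 60 bases and not the rest of each ring.

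The array values are log2 of the background-subtracted signal minus the upper quartile (75th percentile) of all circRNA probes on the same array, so a value below 0 is dimmer than that quartile. Every value of the 3 probes was negative. Levels of different probes are not compared, because each probe binds its target with its own strength. A log2 fold change (FC) is cocaine CPP minus control. In bulk tissue, fewer cells that hold a circRNA and less of it per cell cannot be told apart.

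The signal of circDlgap2, from the postsynaptic scaffold gene, was lower on every cocaine CPP array than on any control array. It stood at -2.36, -2.99 and -2.30 on the arrays of cocaine CPP replicates 2, 3 and 4. On the arrays of control replicates 1, 5 and 6 it stood at -1.64, -1.83 and -2.18. The lowest control value lay 0.13 above the highest cocaine CPP value, a gap smaller than the SD within groups of 0.33. Group means were -2.55 ± 0.38 in cocaine CPP and -1.88 ± 0.27 in control (SD, n = 3 each). The log2 FC was -0.67 ± 0.27 (SE), a ratio of 0.629. Of the 12956 probes tested, 1.04% had a lower log2 FC.

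Cocaine CPP replicate 3 stood apart within its group for circDlgap2. Without it the log2 FC was -0.45. That array was also the dimmest of the 6, and its part in the difference was not tested.

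The signal of circRab30, from the Golgi GTPase gene, was also lower on all 3 cocaine CPP arrays than on all 3 control arrays. The values of cocaine CPP replicates 2, 3 and 4 were -2.23, -2.28 and -2.17, within a range of 0.10. Those of control replicates 1, 5 and 6 were -1.51, -1.89 and -1.94 with replicate 1 the highest. The gap between the groups was 0.23, larger than the SD within groups of 0.17. Means were -2.23 ± 0.05 in cocaine CPP and -1.78 ± 0.23 in control (SD, n = 3 each), a log2 FC of -0.45 ± 0.21 (SE) and a ratio of 0.734. A lower log2 FC was found for 4.28% of probes tested. Leaving out control replicate 1 gave -0.31.

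The signal of circMagi1, from the junctional guanylate kinase gene, overlapped between the groups. It was -1.85, -1.67 and -1.85 on the arrays of cocaine CPP replicates 2, 3 and 4. It was -1.77, -2.21 and -1.88 on those of control replicates 1, 5 and 6. Control replicate 1 lay inside the range of the cocaine CPP arrays, and control replicate 5 was the lowest of all 6. Means were -1.79 ± 0.11 in cocaine CPP and -1.95 ± 0.23 in control (SD, n = 3 each). The log2 FC was 0.16 ± 0.21 (SE). That SE is limma's moderated one, and the probe's own SD within groups was 0.18. limma's moderated test gave an adjusted p of 0.999638 over the 12956 probes tested (n = 3 each). This does not show that the groups were alike, and without control replicate 5 the log2 FC was 0.03.

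Groups of 3 arrays that do not overlap were found for 3.59% of all probes tested, 2.42% lower and 1.17% higher in cocaine CPP. For circDlgap2 and circRab30 nothing is read from this share, since their listing used the same contrast. After Benjamini-Hochberg adjustment limma called 0 of 12956 probes (0%), with 101 (0.78%) under 0.05 before adjustment, 62 lower (0.479%) and 39 higher (0.301%) in cocaine CPP. All 101 also had an FC above 1.2 or below 0.8, and within these bounds the count was 525 without cocaine CPP replicate 2, 442 without replicate 4, 166 without replicate 3 and 46 without control replicate 1. With 3 arrays in each group, a count of 0 does not show that no circRNA differed.

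**Figure D1:**
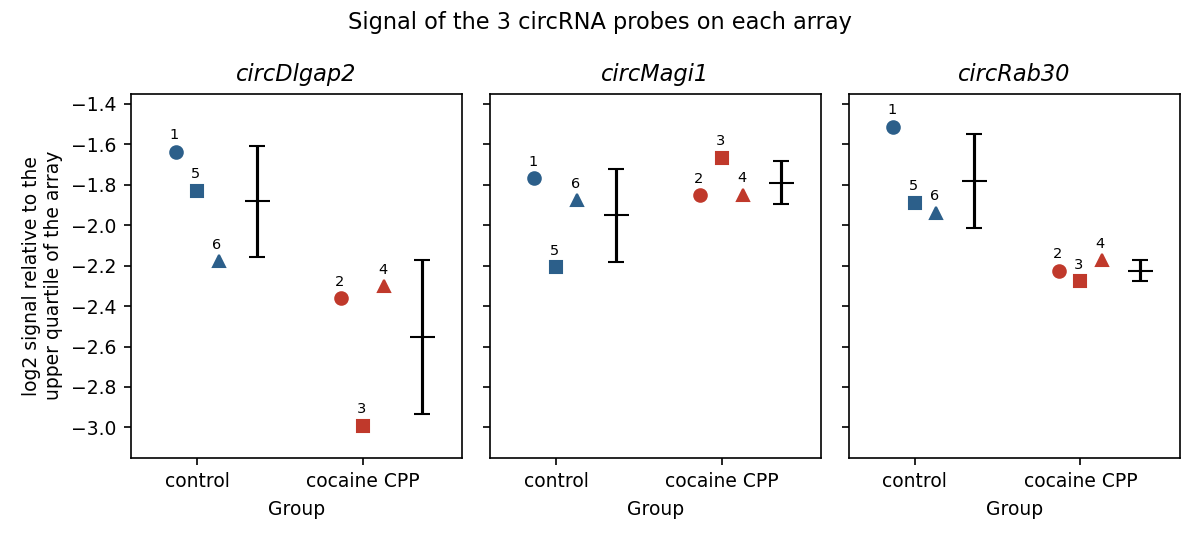
Signal of the 3 circRNA probes on each array, as log2 relative to the upper quartile of that array (y axis), for the control (blue) and cocaine CPP (red) groups; numbers are replicates, and black marks are the mean ± SD of n = 3. The groups do not overlap for circDlgap2 and circRab30 and do overlap for circMagi1, and cocaine CPP replicate 3 is the lowest of all arrays for circDlgap2 at -2.99.

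The profiles of the 3 probes over the arrays were compared after each was centred on its own mean. circDlgap2 and circRab30 differed by a root mean square of 0.24 (log2), circMagi1 and circRab30 by 0.34, and circDlgap2 and circMagi1 by 0.54. In each pair the largest difference fell on cocaine CPP replicate 3, where circMagi1 was at its highest and circDlgap2 at its lowest. On that array the centred values of circDlgap2 and circMagi1 were 0.98 apart. The 2 probes of the deposited table were thus not alike on every array: circRab30 was nearly level over the cocaine CPP arrays, whereas circDlgap2 spread over 0.69.

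All 3 spots were dim. For circDlgap2 the median spot signal in scanner units was 84, 44.5 and 77 on the arrays of cocaine CPP replicates 2, 3 and 4, and 117, 120 and 67 on those of control replicates 1, 5 and 6. The local background of the same spots was 26, 27 and 30.0, then 29, 30.5 and 29. On cocaine CPP replicate 3 the spot was thus only 1.65 times its background, the lowest ratio among the 18 spots. There the scanner software gave the processed signal an error of 15.6%, against 10.1% to 10.7% on the other arrays.

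The circRab30 spot read 93, 53 and 87 in cocaine CPP and 116, 115.5 and 73 in control, listed by replicate number as before. Its ratio to background ran from 1.83 on cocaine CPP replicate 3 to 4.62 on control replicate 5. The circMagi1 spot read 111, 63.5 and 95 in cocaine CPP and 108, 97 and 76 in control, with ratios from 2.35 to 4.44. Every one of these spots was well above background by the scanner software's own call, none was saturated and none was marked as an outlier. The local background of the circDlgap2 spot on cocaine CPP replicate 2 was marked as one.

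Before any scaling, the order of the arrays differed from that above. The unscaled median signal of circDlgap2 on control replicate 6 (67) was below that of cocaine CPP replicates 2 and 4, and the groups overlapped. The same held for circRab30, whose 73 on control replicate 6 was below 93 and 87. The separation of both probes therefore appears once each array is set against its own brightness. The authors' mean raw signals were 68.5 in cocaine CPP and 101 in control for circDlgap2, and 77.7 and 101.5 for circRab30. Their means of log2 normalized intensity were 5.90 and 6.42 for circDlgap2, and 6.14 and 6.53 for circRab30.

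**Figure D2:**
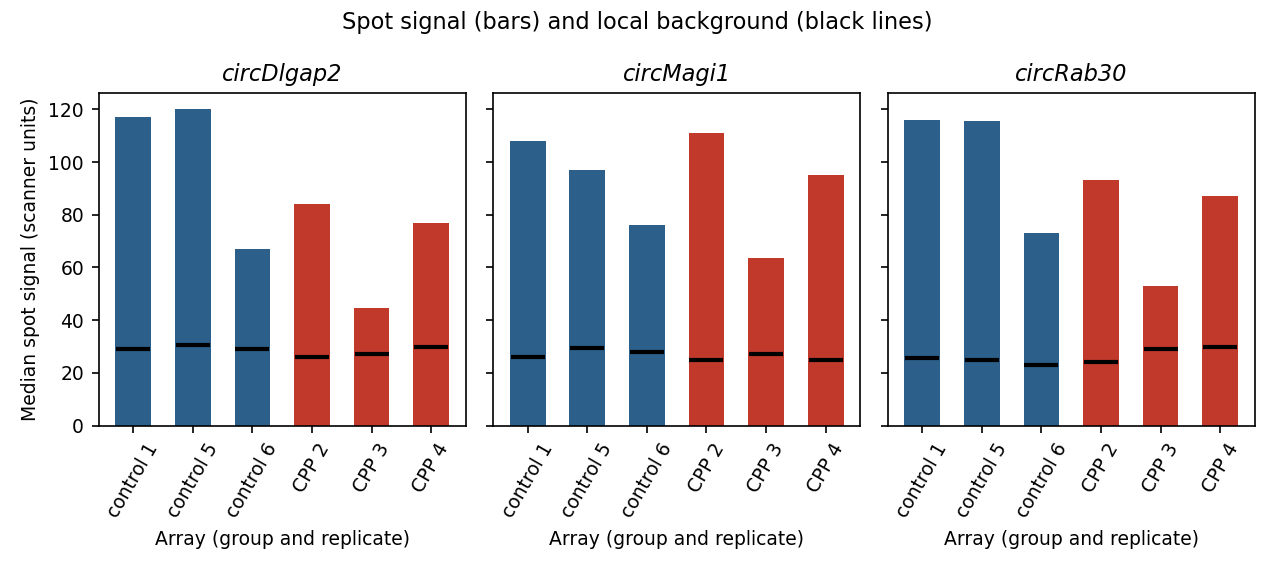
Median spot signal (bars, scanner units, from 0) and local background (black lines) of the 3 probes on each array, control in blue and cocaine CPP in red, before any scaling. Cocaine CPP replicate 3 is the dimmest array for each probe, and for circDlgap2 its bar of 44.5 stands closest to its background of 27.

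The arrays as a whole differed in brightness. The upper quartile of log2 processed signal ran from 7.43 to 8.31 on the control arrays and from 7.96 to 8.21 on cocaine CPP replicates 2 and 4, and was 6.77 on cocaine CPP replicate 3. There 77.8% of circRNA probes were well above background, against 87.8% to 93.2% elsewhere. The control arrays and cocaine CPP replicate 2 lay in slide row 1, and cocaine CPP replicates 3 and 4 in row 2. Within row 1, cocaine CPP replicate 2 minus the mean of the 3 control arrays was -0.48 for circDlgap2, -0.45 for circRab30 and 0.10 for circMagi1, each from 1 cocaine CPP array. Defining mRNAs of the tissue such as Drd1 and Drd2 were not among the annotated hosts, which are known for 681 of the 14236 probes. Of 14 striatal neuron host genes 6 had an annotated probe, and all 10 such probes were well above background on all 6 arrays, as were 2 of 3 probes of cortical neuron hosts and 2 of 2 of glial and vascular genes. The median level of the striatal probes ran from 0.76 to 1.73 over the cocaine CPP arrays and from 1.54 to 1.90 over the control arrays. For the 2 glial probes it ran from 1.48 to 2.17 and from 1.74 to 2.02, and for the cortical probes from -3.51 to -1.50 and from -2.82 to -1.90. The part of tissue composition in the values of the 3 probes was not tested.

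The direction of each probe was recomputed under 14 other settings. circDlgap2 and circRab30 were lower in cocaine CPP under all 14, and circMagi1 was higher under all 14. For circDlgap2 and circRab30 this is no support, since both were selected as lower on this same contrast. As their groups did not overlap, leaving out an array could not reverse their direction. The size depended on the background. With normexp, a model-based background correction, the log2 FC was -0.34 for circDlgap2 and -0.26 for circRab30, and with no background subtraction it was -0.44 and -0.24. Under each of the 6 other ways to scale or correct the signal that were tried, the groups of circDlgap2 and circRab30 did not overlap and those of circMagi1 did.

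**Figure D3:**
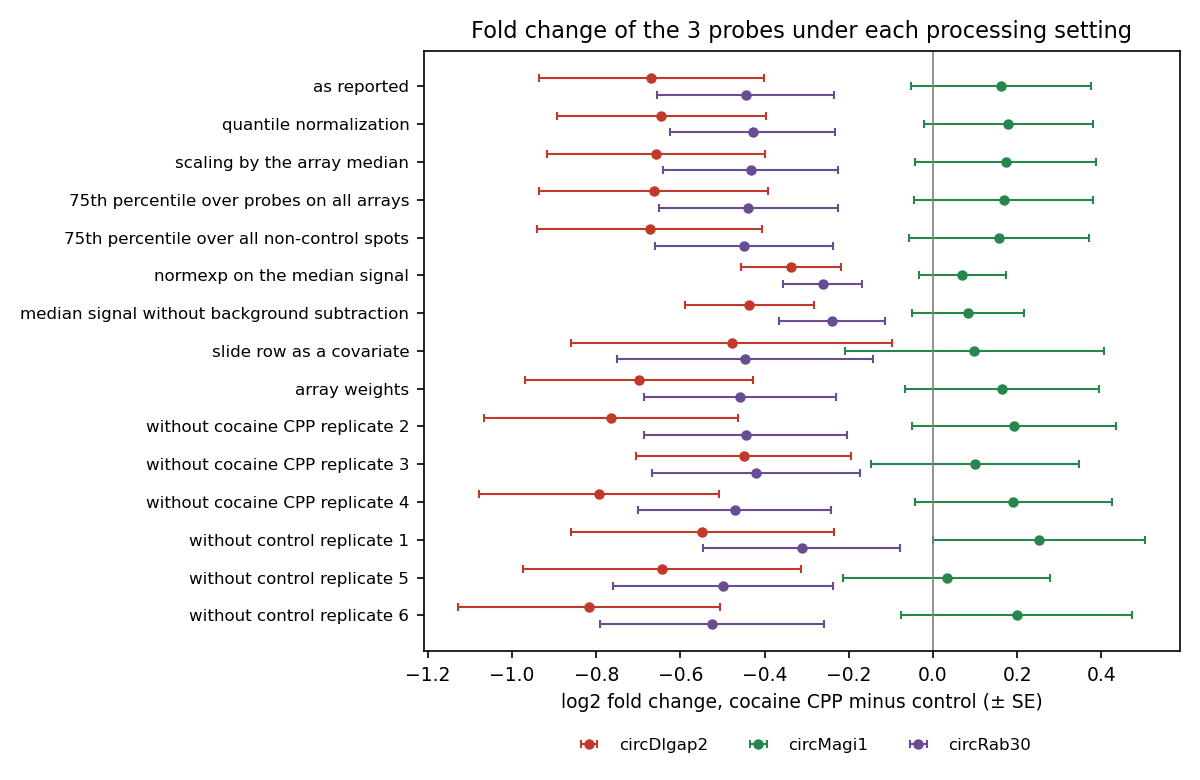
Log2 FC, cocaine CPP minus control (x axis), with its SE (bars) for the 3 probes under the reported setting and 14 others (y axis). Points of circDlgap2 and circRab30 stay below 0, nearest it at -0.34 and -0.24, and those of circMagi1 stay above 0, between 0.03 and 0.25. circDlgap2 and circRab30 were selected for low values on these arrays, so their side of 0 is no finding.

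Other circRNAs from related genes were described through lists of postsynaptic scaffold, Rab GTPase and vesicle genes, leaving out the 3 probes themselves. Over the 3 lists together 85 probes were tested, 57 with a negative and 28 with a positive log2 FC. None was under 0.05 in limma's test, adjusted or unadjusted, where 0.78% of all probes were under 0.05 unadjusted. The median log2 FC over the 85 probes was -0.09, against -0.02 over all probes tested, of which 54.1% were negative. The median was -0.08 over the 674 tested probes with a known host gene, the 85 included and the 3 probes left out, of which 68.7% were negative. These 674 include other circRNAs of the deposited tables, which were chosen on this contrast, and the 85 include none. Most hosts of the 674 are known only through the HuD-bound list, so the lists cover such circRNAs rather than all circRNAs of each family.

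Among the postsynaptic scaffold genes, which hold receptors and signalling proteins at the synapse, 33 probes of 20 host genes were tested. The log2 FC was positive for 13 and negative for 20, with a median of -0.09, and 0 passed. Groups did not overlap for 2 of the 33, both lower in cocaine CPP, beside 2.42% of all probes. One was a probe of Homer1, the scaffold that links metabotropic glutamate receptors to Shank (ASCRP4008138), at -2.00 ± 0.19 in cocaine CPP and -1.53 ± 0.12 in control. Its log2 FC of -0.47 ± 0.21 (SE) was the lowest of the list. The other was a probe of Dlg1, which encodes SAP97 (ASCRP4003149), with a log2 FC of -0.34 ± 0.22.

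Probes of one host gene differed among themselves. The 4 Homer1 probes had log2 FCs from -0.47 to 0.15, and those of 0.14 and 0.15 (ASCRP4014032 and ASCRP4005043) came with SEs of 0.51 and 0.52. The second Dlg1 probe had -0.34 ± 0.31. Dlg2, which encodes PSD-93, had -0.18 ± 0.26, and Dlg4, which encodes PSD-95, had 0.07 ± 0.33. The other Dlgap genes with an annotated probe were not selected on these arrays, unlike Dlgap2, and are given by their own values. Dlgap1 had 0.09 ± 0.24 and 0.22 ± 0.21 at its 2 probes, and the second (ASCRP4004776) was the highest of the list. Dlgap3, the SAPAP family member known for its high expression in striatum, had -0.01 ± 0.27 and 0.08 ± 0.29. No other probe of Dlgap2 or of a Magi gene was among the annotated hosts. The study's own list of circRNAs in CPP holds a further entry for Dlgap2 without its probe, which was not analysed here.

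Among Rab GTPases, their effectors and regulators, 18 probes of 13 host genes were tested, 15 with a negative and 3 with a positive log2 FC, and 0 passed. The median was -0.10, but it was 0.02 without cocaine CPP replicate 4. With slide row as a covariate, a fit that compares cocaine CPP replicate 2 alone with the 3 control arrays, it was 0.18. Probes of Rab genes proper were close to 0 on the scale of their errors. Rab12 had the lowest log2 FC of the list at -0.30 ± 0.30, followed among Rab genes by Rab1 (-0.22 ± 0.31), an ER-to-Golgi GTPase, and Rab21 (-0.14 ± 0.25), which acts in endosomes. Rab6a, a Golgi GTPase like Rab30, had -0.14 ± 0.31 and -0.10 ± 0.27 at 2 probes. Rab10 had -0.13 ± 0.30 and -0.09 ± 0.31, and Rab11a, of recycling endosomes, had -0.04 ± 0.24. Rab11fip4, a Rab11 effector, had -0.05 ± 0.29. Rims1, the active-zone effector of Rab3, had the highest at 0.21 ± 0.23 and a second probe at 0.18 ± 0.22.

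Among vesicle and trafficking genes 39 probes of 31 host genes were tested, 24 with a negative and 15 with a positive log2 FC, and 0 passed. The median was -0.04, and 0.03 with slide row as a covariate, where again 1 cocaine CPP array carries the comparison. The highest log2 FC was 0.23 ± 0.27, for Stx1a, which encodes the plasma membrane SNARE syntaxin-1A.

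**Figure D4:**
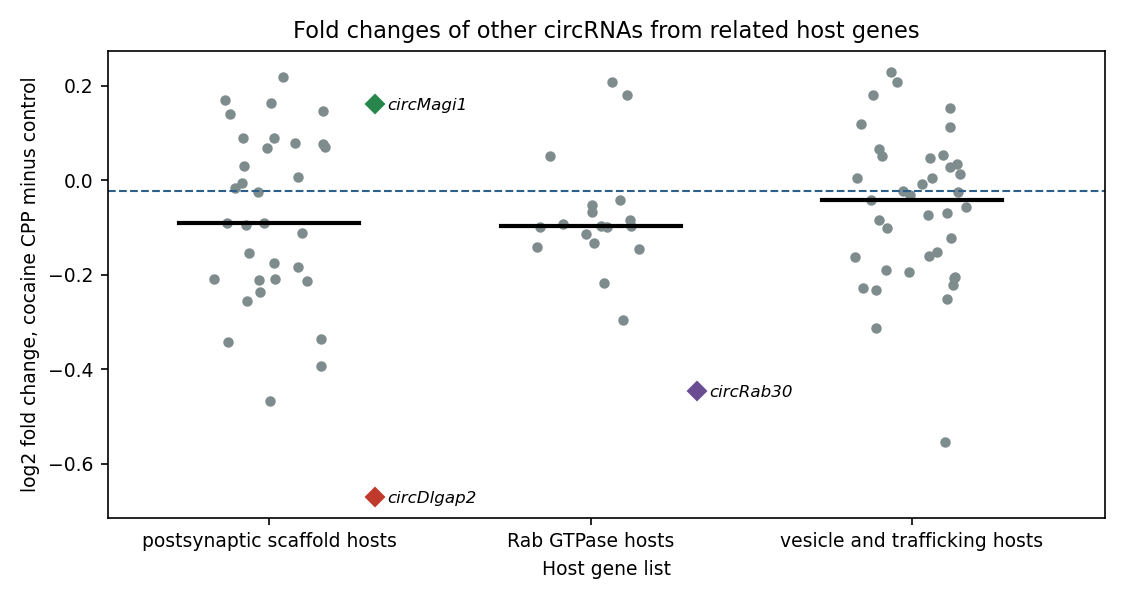
Log2 FC, cocaine CPP minus control (y axis), of other circRNA probes from 3 lists of host genes (grey points), with list medians as black lines, the median of all probes tested as a dashed line, and the 3 probes as diamonds beside the list their host belongs to. The diamonds of circDlgap2 at -0.67 and circRab30 at -0.45 were selected for low values on these arrays and the grey points were not, so their place below the grey points of their lists is no finding; circMagi1 at 0.16 lies within the scaffold points.

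Finally, the 649 host-annotated probes well above background on all 6 arrays were ranked by how closely their centred profile followed each probe, as a root mean square difference over the 6 arrays. The nearest to circDlgap2 were circRNAs of Pde7b, a cAMP phosphodiesterase (0.18), Cap2, an actin regulator (0.19), and St13, an Hsp70 co-chaperone (0.20), where the median candidate was at 0.43. Their log2 FCs were -0.47, -0.46 and -0.38. None of the 3 fell as low on cocaine CPP replicate 3 as circDlgap2 did, with centred values there of -0.43, -0.46 and -0.48. Nearest to circRab30 were Cdk17, a cyclin-dependent kinase (0.10), Dgkb, a diacylglycerol kinase (0.10), and Lmo7, a LIM domain protein (0.11), against a median of 0.31. Their log2 FCs were -0.41, -0.50 and -0.39. Cdk17 and Lmo7 are in the deposited table that also holds circRab30, which was drawn up on the same contrast. The centred profiles include the group difference that circDlgap2 and circRab30 were selected on, so their nearest probes partly restate that choice.

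Nearest to circMagi1 were Tnpo2, a nuclear import receptor (0.07), Dlgap1, the scaffold gene related to Dlgap2 (0.08, ASCRP4004776), and Aff3, a nuclear protein of the AF4 family (0.08), against a median of 0.31. All 3 had, like circMagi1, their lowest value on control replicate 5, with centred values of -0.22, -0.36 and -0.35. With 6 arrays these rankings describe the arrays and carry no test.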

How the data were processed

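Sample labels gave the groups and replicate numbers. The authors deposited scanner output with, per spot, an intensity (median signal, local background, background-subtracted processed signal and its error). Tables of 10 circRNAs called higher and 19 called lower in cocaine CPP, kept at a fold change of 1.3 and p of 0.05, were also deposited, with group means of raw and log2 normalized intensity. Their fold change, p and FDR columns and 24 per-sample columns were not used. The raw means equalled those of the median signal (58 of 58, tolerance 1e-05) and thus carry no background subtraction. Normalization and genome build are not given in the sources used here; starts were raised by 1. The submitters' processing notes name limma.

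Here the log2 processed signal was scaled by subtracting, on every array, the 75th percentile of the circRNA probes, after 19 spot values marked as outliers had been removed. Background subtraction can widen fold changes of dim probes, and this scaling removes shifts common to all probes. Probes well above background on at least 3 arrays (12956) entered limma 3.58.1 (lmFit, eBayes) under R 4.3.3. Tests were two-sided at 0.05 after Benjamini-Hochberg adjustment, and the fit was tested on simulated data. Precision is limited by how far spots exceed background and by the 6 arrays. Host genes of 681 probes came from the deposited tables and the study's HuD-bound list (658 probes), whose values were not used.

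The 3 probes and all lists were chosen with earlier results of these data known. Named are the 3 probes; in each list the highest and lowest log2 FC, any probe under 0.05 unadjusted and every probe of Dlg, Dlgap, Magi, Homer and Rab genes; and the 3 most similar hosts per probe. The second Rims1 probe was named after its value was seen. One result that this rule would name is not reported here. Alternatives were quantile normalization, other scalings, normexp (offset 50), no background subtraction, slide row, array weights, other filters, eBayes with trend, the methods' t-test, fold change bounds and leaving out each array. Python 3.11.15 with matplotlib 3.10.9 drew the figures.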

Additional observations from a re-analysis of the deposited data

How the results depend on the processing

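The 3 probes kept their direction under all 14 alternatives. For circDlgap2 and circRab30, selected as lower on this contrast, the kept direction is no support. The log2 FC moved by more than the spread between replicates for circDlgap2 with normexp (-0.34), and for circRab30 with normexp (-0.26) and with the unsubtracted median signal (-0.24); the cause was not tested. Leaving out each array in turn gave -0.82 to -0.45 for circDlgap2 (lowest without control replicate 6, nearest 0 without cocaine CPP replicate 3), -0.52 to -0.31 for circRab30 and 0.03 to 0.25 for circMagi1 (0.25 without control replicate 1). With slide row as a covariate the comparison rests on cocaine CPP replicate 2 alone, assumed to vary like the other arrays, since replicates 3 and 4 have row 2 to themselves. Then circDlgap2 was -0.48, circMagi1 0.10 and circRab30 -0.45, and limma called 1 probe after adjustment instead of 0. The methods' t-test called 0 after adjustment. The number of probes under 0.05 unadjusted within the bounds FC above 1.2 or below 0.8, 101 as reported, ran from 46 without control replicate 1 to 525 without cocaine CPP replicate 2, and was 442 without cocaine CPP replicate 4, 166 without cocaine CPP replicate 3, 277 with slide row, 188 without a filter, 50 with the filter on all 6 arrays, 51 with normexp, 67 without background subtraction and 56 with trend. Leaving out each array gave list medians of -0.18 to -0.01 for scaffold, -0.24 to 0.02 for Rab and -0.15 to -0.003 for vesicle hosts. The count of scaffold probes under 0.05 unadjusted was 1 in 5 of 16 alternatives, and that of vesicle probes was 1 in 4 of 16. These need not be the same probe each time. No Rab probe came under 0.05 in any alternative. No paired analysis was possible because no replicate number occurs in both groups.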
